A study of Homo sapiens with 4 samples.

Results

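The regions described here are 3983 short H3K9la regions that appear in the sg3 peak list, have no counterpart in the V2 peak list, and sit at the end of 1 protein-coding gene. H3K9la is histone H3 lactylated at lysine 9, and it was mapped by ChIP-seq with an anti-H3K9la antibody in KYSE30, an established oesophageal squamous carcinoma line grown in DMEM with serum. The arms are called sg3 and V2 in the labels, which do not say what either name means. Each arm comprises 1 ChIP library and 1 input library, 4 samples in all, so both arms share the cell line, the antibody and the culture, and there is no replicate to measure error. The title of the series presents SIRT3, a sirtuin deacylase, as an eraser of the mark, and the lists allow the question of where regions are found in sg3 and not in V2.

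The regions were selected on the overlap of the lists themselves. A region of the sg3 list was kept when it lay on chromosomes 1 to 22 or X, was under 5000 bases wide, had no base in common with a V2 region, and had its summit, the position of highest signal, within 1 kb of an end of exactly 1 RefSeq protein-coding gene. They are called sg3-only gene-end regions below. Of the 56875 regions in the whole list, 54402 met the limits on width and chromosome, and 48.2% of these had no V2 overlap. The V2 list is shorter, at 40332 regions, so some sg3 regions would lack a V2 counterpart by list length alone. The sg3-only gene-end regions are 3983 of the 54402. Absence from V2 means that no V2 region was called there. It does not mean that signal was absent, and neither list states its read depth. Since the overlap chose the regions, their absence from V2 is given as a description, and with 1 library per arm no test was made. Intervals are exact Clopper-Pearson 95% intervals and cover counting error only.

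Lactylation is the attachment of a lactyl group, derived from lactate, to a lysine side chain. Histone acylations of this kind are placed by acyltransferases and removed by deacylases such as sirtuins and class I histone deacetylases, and H3K9 acylation is known mostly from the nucleosomes that flank active gene starts. At such starts the core promoter itself is often free of nucleosomes, so signal for a histone mark tends to lie on either side of it. CpG-rich promoters, which serve most genes used in every cell, usually have this arrangement, while TATA-box promoters are more typical of regulated genes.

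The sequences below show the promoters beside 5 of the strongest sg3-only regions. The first 4 belong to the genes with the highest fold enrichment among the 12 regions of highest -log10 q, taking those at a gene start, and the fifth is a contrasting CpG-poor promoter. Each run is the 250 bases before the start, 5′ to 3′ on the strand of the gene, from RefSeq on GRCh38.p14. Capitals mark matches, on either strand, to the GC box GGGCGG, the CCAAT box, the ETS family motif CCGGAAG, the TATA box motif TATAAA and the AP-1 motif TGANTCA.
BTBD10: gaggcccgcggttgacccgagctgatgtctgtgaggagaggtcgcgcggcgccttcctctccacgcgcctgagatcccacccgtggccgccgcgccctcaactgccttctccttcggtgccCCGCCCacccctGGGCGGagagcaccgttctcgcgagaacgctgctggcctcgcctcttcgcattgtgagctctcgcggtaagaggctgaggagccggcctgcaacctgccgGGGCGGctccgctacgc
MON1B: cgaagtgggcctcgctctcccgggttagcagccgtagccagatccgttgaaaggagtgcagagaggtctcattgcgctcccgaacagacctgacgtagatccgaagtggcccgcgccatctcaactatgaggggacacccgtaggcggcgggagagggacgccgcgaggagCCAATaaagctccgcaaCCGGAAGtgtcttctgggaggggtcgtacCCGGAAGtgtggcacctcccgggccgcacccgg
CDK11A: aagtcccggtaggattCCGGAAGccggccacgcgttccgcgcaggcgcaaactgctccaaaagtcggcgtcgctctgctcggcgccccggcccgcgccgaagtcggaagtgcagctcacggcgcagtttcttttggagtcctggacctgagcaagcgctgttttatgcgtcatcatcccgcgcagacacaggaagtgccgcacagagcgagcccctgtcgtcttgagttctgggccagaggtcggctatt
DDX50: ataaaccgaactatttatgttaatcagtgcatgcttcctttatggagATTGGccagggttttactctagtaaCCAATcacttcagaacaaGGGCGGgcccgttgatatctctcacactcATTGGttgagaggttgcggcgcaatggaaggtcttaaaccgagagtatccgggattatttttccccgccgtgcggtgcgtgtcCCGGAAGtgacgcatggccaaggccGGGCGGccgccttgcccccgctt
GBP6: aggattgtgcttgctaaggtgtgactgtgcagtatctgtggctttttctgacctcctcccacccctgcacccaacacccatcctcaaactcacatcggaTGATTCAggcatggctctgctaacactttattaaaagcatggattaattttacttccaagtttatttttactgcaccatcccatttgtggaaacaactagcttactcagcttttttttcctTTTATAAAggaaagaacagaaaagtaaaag
These windows are chr11:13463223-13463472 on the minus strand for BTBD10, chr16:77190940-77191189 on the plus strand for MON1B, chr1:1724358-1724607 on the minus strand for CDK11A, chr10:68901065-68901314 on the plus strand for DDX50 and chr1:89363809-89364058 on the plus strand for GBP6. The first 4 held 29, 24, 28 and 17 CG pairs, in that order, and the GBP6 window held 1. GC boxes appear in BTBD10 and DDX50, ETS motifs in MON1B, CDK11A and DDX50, and CCAAT boxes in MON1B and DDX50. The GBP6 window instead holds a TATA box close to the start, whose letters match on both strands with overlap, and an AP-1 motif. The summits lay beside the printed stretches, past the start in 4 genes and further upstream in DDX50.

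The strongest sg3-only gene-end regions were narrow peaks, 10 of the 12 of highest -log10 q at a gene start and the other two at a 3′ end. Fold enrichment is the ratio of ChIP signal to background at the summit, and -log10 q is the caller's significance. Both are the authors' values and rank regions within 1 list. BTBD10, which encodes a BTB-domain protein, was the most enriched of all 3983 regions, at 15.8-fold with a -log10 q of 66.1 (chr11:13462541-13463263). Its summit was 284 bases inside the gene, and the nearest V2 region was 129111 bases away. MON1B, part of the exchange factor that activates the late endosome GTPase RAB7, was enriched 14.5-fold at a -log10 q of 57.6 (chr16:77191211-77191925), with its summit 409 bases into the gene and no V2 region for 20726 bases. CDK11A, a cyclin-dependent kinase linked to transcription and splicing, was enriched 9.32-fold at a -log10 q of 57.1 with its summit at 274 bases. It has a near-identical neighbour, CDK11B, so its value is uncertain. All 3 summits lay inside the gene near its start, and no V2 region was within 20 kb.

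Among the remaining leaders by -log10 q, the highest value did not mean the highest enrichment. SEC61G, a subunit of the protein channel of the endoplasmic reticulum, led at 74.0 with only a 5.30-fold enrichment, and its summit lay 241 bases inside the gene. GMNC, which drives the multiciliated cell fate, followed at 72.8 and 7.47-fold, with its summit 330 bases upstream of the start. Next to these stand PRKAA1, a catalytic subunit of the energy sensor AMPK (56.4 and 5.89-fold), TVP23B, a Golgi membrane protein (56.2 and 6.44-fold), ZFP62, a zinc finger protein (55.7 and 6.80-fold), and ECI1, an isomerase of mitochondrial fatty acid oxidation (54.9 and 6.33-fold). The nearest V2 region lay at least 15869 bases from each of these 6. TVP23B has a close paralogue, TVP23C, and is uncertain for the same reason as CDK11A.

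Not all leaders were isolated. DDX50, a nucleolar RNA helicase, was enriched 8.63-fold at a -log10 q of 61.6 at chr10:68900637-68901097, with the summit 458 bases upstream of its start. A V2 region enriched 6.87-fold (-log10 q 25.3 in the V2 list) lay at chr10:68901338-68901797, on the other side of the same start and 240 bases from the sg3-only region. DXO, an RNA decapping enzyme of the MHC region, was enriched 14.9-fold with its summit 735 bases upstream, and a V2 region (7.54) lay 287 bases away. V2 thus had a region of its own at both genes, beside the start of DDX50 and across the start of DXO. By fold enrichment the top 6 were completed by RANBP6, of the importin family (14.7), MORF4L2, a relative of a chromatin complex subunit (14.4), and ERGIC2, a protein of the early secretory route (13.6). The nearest V2 regions of these lay 7352, 282918 and 158338 bases away.

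As a set, the 3983 regions were narrow and of moderate strength. Their median width was 497 bases (interquartile range 411 to 673.5), close to the smallest width of 359, and the widest, at CALB2, a calcium-binding protein, measured 3437 bases. After it came HDHD3, a hydrolase-like protein, at 2828 bases, BDH1, an enzyme of ketone body metabolism, at 2628 and C8orf74, an uncharacterised gene, at 2454. The median fold enrichment was 4.31 (3.47 to 5.51, with extremes of 1.69 and 15.8), and the median -log10 q was 12.6 (8.33 to 19.4, with extremes of 2.05 and 74.0). The 4279 sg3 regions at a single gene end that overlapped a V2 region were wider and stronger, with medians of 894 bases, 6.0 and 32.5. The sg3-only regions away from gene ends had nearly the same width and enrichment as those at gene ends but a lower -log10 q. The medians were 488 bases, 4.40 and 8.70 for 10721 regions inside gene bodies, and 482 bases, 4.42 and 8.52 for 10604 regions between protein-coding genes.

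A fixed fold enrichment did not carry the same -log10 q on every chromosome. Among sg3-only gene-end regions with a fold enrichment from 4 to 6, the median -log10 q ran from 10.1 on X (55 regions) to 18.7 on chromosome 8 (54 regions) and 18.1 on chromosome 9 (54 regions). The part of this in the ranking by -log10 q was not tested.

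Over all strengths, the share without a V2 counterpart was close at single gene ends and elsewhere, and higher where several gene ends meet, at 54.0% (906 of 1678, interval 51.6 to 56.4%). At a single gene end the share was 48.2% (3983 of 8262, interval 47.1 to 49.3%), and with no gene end within 1 kb it was 48.0% (21325 of 44462, interval 47.5 to 48.4%). Within bands of -log10 q the shares separated. From 10 to 20, 69.6% of regions at a single gene start were sg3-only (67.4 to 71.7%), and 61.5% at a single 3′ end (54.6 to 68.1%), against 47.5% away from gene ends (46.6 to 48.3%). From 20 to 40 the shares were 33.7% at starts (653 of 1938) and 24.3% at 3′ ends (27 of 111), against 17.3% elsewhere. At 40 or more they fell to 5.38% at starts (70 of 1302) and 6.0% at 3′ ends (3 of 50), against 1.76% elsewhere (77 of 4384). In every band from below 5 upwards the share at starts lay above that away from gene ends, and the intervals of the pair did not overlap. Regions were not matched on width or fold enrichment here. Over all strengths, sg3-only regions at a single gene end had a median -log10 q of 12.6 at a median fold enrichment of 4.31. Inside gene bodies the medians were 8.70 and 4.40, so a band of -log10 q need not hold equal enrichment.

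**Figure D1:**
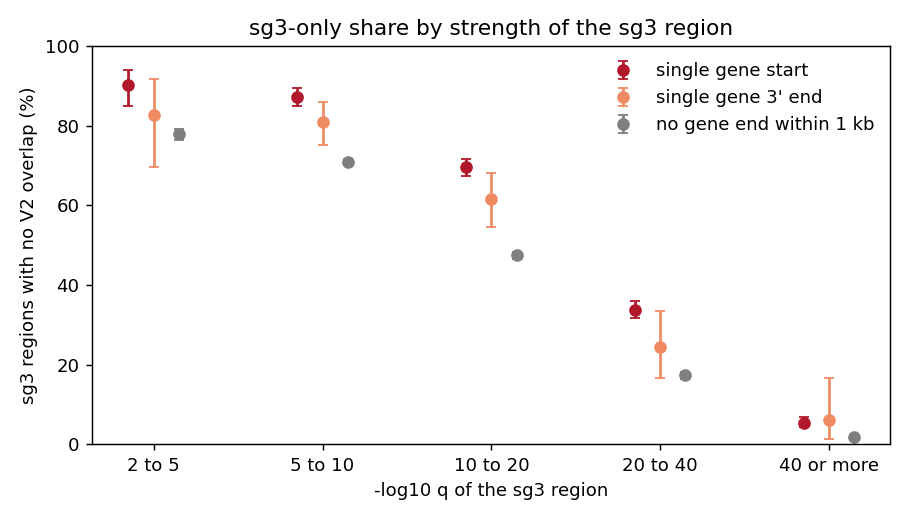
Share of sg3 regions with no V2 overlap, in percent, by the -log10 q of the sg3 region, for regions at a single gene start, at a single gene 3′ end and with no gene end within 1 kb. Points are shares of regions in 1 library pair and bars are exact 95% intervals for counting error. From 20 to 40 the share was 33.7% at starts and 24.3% at 3′ ends, against 17.3% elsewhere. Regions were not matched on width or fold enrichment.

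Most of the regions sat at the start of their gene, not at its 3′ end. Strand was known for the genes of 3253 regions, and of these 2875 lay at the start, which is 88.4% (87.2 to 89.5%), and 378 at the 3′ end. Among V2-overlapping regions the share at the start was 92.4% (91.4 to 93.2%, of 3445). For 730 regions the strand of the gene was not in the table. Both ends of the gene lay within 1 kb for 35 regions, which were placed by the nearer end.

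Around gene starts the summits gathered in a narrow zone inside the gene, and few lay just before the start. The median summit lay 255 bases past the start (interquartile range -296 to 339), and 2035 of 2875 summits, 70.8% (69.1 to 72.4%), were inside the gene. In bins of 100 bases, 723 summits fell from 200 to 300 bases inside the gene and 523 from 300 to 400, while 43 fell in the last 100 bases before the start. A smaller group stood upstream, with 172 summits from 500 to 400 bases before the start. V2-overlapping regions had the same 2 groups with their main summits slightly further in, at a median of 289 bases, and 74.2% inside the gene (72.7 to 75.7%). A summit within 250 bases of the start was found in 22.8% of sg3-only regions and in 15.5% of V2-overlapping ones. Within the band from 20 to 40 in -log10 q, 81.0% of the sg3-only summits were inside the gene (77.8 to 83.9%, n = 653), against 75.1% of the V2-overlapping ones (72.6 to 77.4%, n = 1285). The sets were not matched further within this band, nor on fold enrichment.

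**Figure D2:**
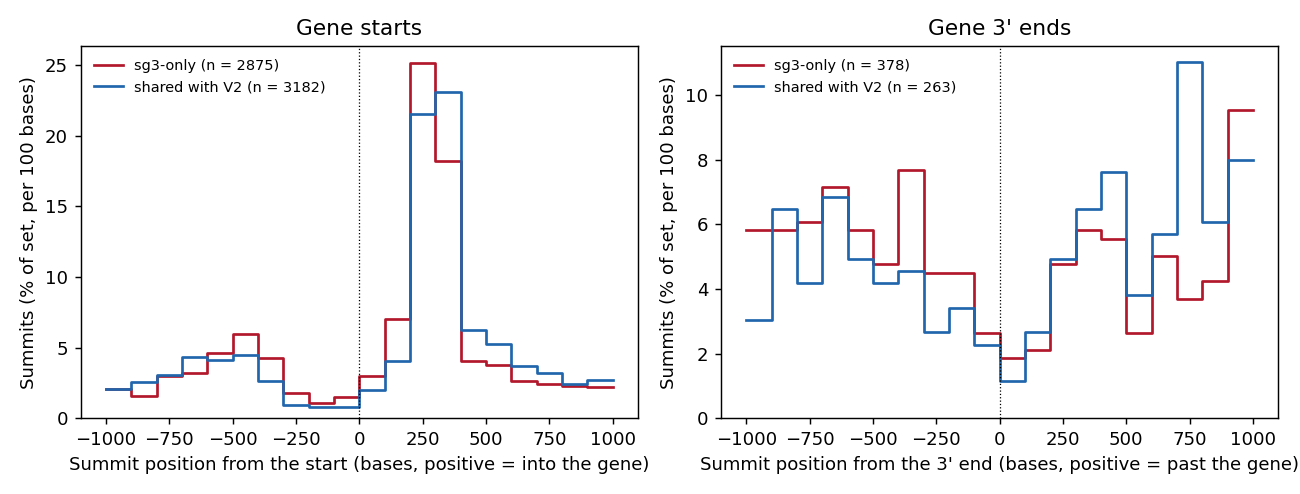
Distribution of summits around gene starts (left) and 3′ ends (right), in percent of each set per bin of 100 bases, for sg3-only regions and for regions that overlap V2. At starts both sets peak from 200 to 400 bases inside the gene, with 25.1% of sg3-only summits and 21.6% of V2-overlapping summits from 200 to 300 bases, and a minimum just before the start.

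The distance to the nearest V2 region divided the set. A V2 region lay under 1 kb away for 986 of the 3983 regions (24.8%), from 1 to 5 kb for 539 (13.5%), from 5 to 50 kb for 1178 (29.6%), and at 50 kb or more for 1280 (32.1%). At gene starts 36.1% of sg3-only regions were at least 50 kb from V2 (34.3 to 37.9%), against 11.9% in gene bodies and 12.5% between genes. At 3′ ends the share was 6.35% (4.11 to 9.30%). Of these 4 classes, starts had the highest share at that distance. The 906 sg3-only regions where several gene ends meet were not divided by distance. Their median gap to V2 was 18175.5 bases, against 15953 for the 3983 regions. Strength changed little with distance, at a median fold enrichment of 4.45, 4.28, 4.19 and 4.39, from the nearest to the farthest distance class.

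**Figure D3:**
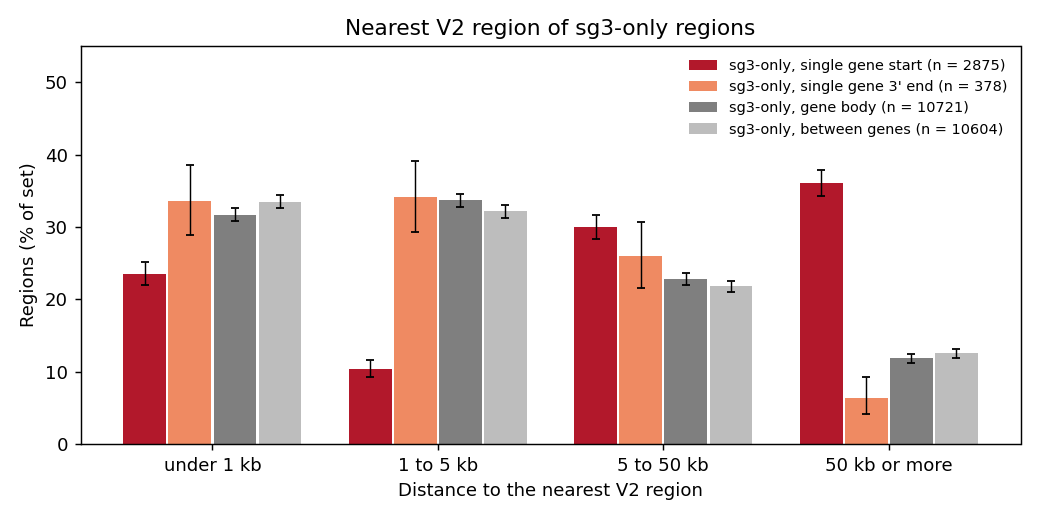
Distance from sg3-only regions to the nearest V2 region, as the percent of each set in 4 distance classes, for regions at single gene starts, at single 3′ ends, in gene bodies and between genes. Error bars are exact 95% intervals. At 50 kb or more stand 36.1% of the regions at starts and 6.35% of those at 3′ ends.

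Isolated regions lay mostly inside the gene, while adjacent ones were split almost evenly between the sides of the start. With V2 at 50 kb or more, 82.9% of summits at starts lay inside the gene (80.5 to 85.2%, n = 1037), and from 5 to 50 kb the share was 76.1% (73.1 to 78.9%, n = 861). With V2 under 1 kb away it was 46.2% (42.4 to 50.1%, n = 677). In 510 of those 677 cases, 75.3% (71.9 to 78.5%), the V2 summit lay on the other side of the same start. The sg3-only summit was upstream and the V2 summit inside the gene in 306 cases, and the reverse held in 204. Both summits were inside the gene in 109 and both upstream in 58. The summits of such pairs stood a median of 962 bases apart (785 to 1197), and the V2 regions had a median fold enrichment of 4.38 in their own list. DDX50 is an example with the sg3-only region upstream. IL11, an interleukin gene with a fold enrichment of 3.21 and its summit 16 bases upstream, had V2 448 bases away. The rule excludes overlap with V2, so a V2 region under 1 kb away had to lie beside the sg3-only region. The shares for adjacent regions are therefore partly set by the rule and are given as a description.

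**Figure D4:**
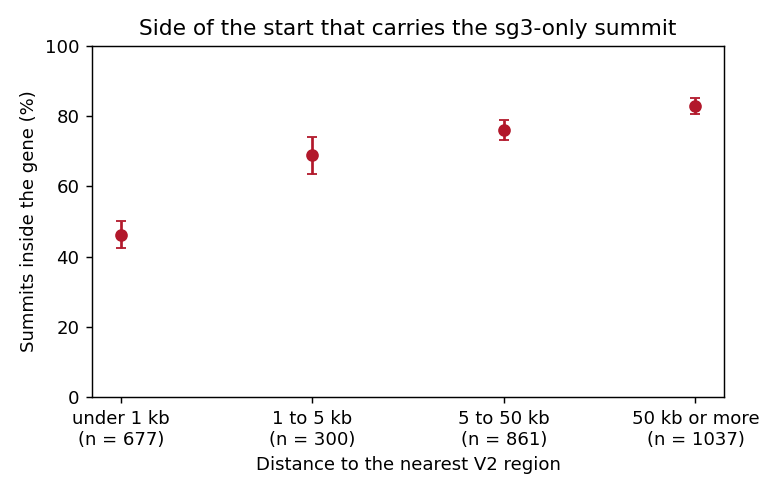
Percent of sg3-only summits at gene starts that lay inside the gene, by distance to the nearest V2 region. Bars are exact 95% intervals, and the number of regions is under each class. The share is 46.2% under 1 kb and 82.9% at 50 kb or more. The rule excludes V2 overlap, which partly sets the share under 1 kb.

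Adjacent regions, at starts and 3′ ends together, mostly had a neighbouring sg3 region that overlapped V2. Of the 986 regions with V2 under 1 kb away, 944 (95.7%) had another sg3 region under 1 kb away, and for 851 of these (90.1%) that neighbour overlapped V2. By the rule, a V2 region so close could not overlap the sg3-only region itself. Of the 1280 regions at least 50 kb from V2, 255 (19.9%) had another sg3 region that near. At 241 genes exactly 2 of the sg3-only regions stood at the start, and at 205 of them, 85.1% (79.9 to 89.3%), the summits lay 1 on each side of it, a median of 791 bases apart (678 to 1040). PNRC2, a regulator of RNA decay, had 3 such regions, at 514 bases upstream and at 307 and 946 bases inside the gene, with fold enrichments of 6.78, 4.39 and 5.94. The nearest V2 region was 55965 bases or more from each. DNAJB12, a co-chaperone, was the gene with the most, at 4 regions over its start and its 3′ end, and its fold enrichments ran between 3.64 and 5.93.

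Counted by gene, the regions belong to 3533 protein-coding genes, which is 17.7% of 19974. A single region was found at 3115 of them, 2 at 387, 3 at 30 and 4 at 1. At 740 genes an sg3 region shared with V2 stood at an end as well. No V2 region lay in the gene or within 1 kb of it for 2022 of the 3533 genes, or 57.2% (55.6 to 58.9%), against 62.4% of all protein-coding genes, so these genes lacked V2 regions less often than genes in general. Within 1 kb of either end alone, 2500 of the 3533 genes (70.8%) had no V2 region. No such share over all protein-coding genes is given here, and the rule excludes V2 overlap, so this value is a description. The start of a long non-coding RNA lay within 1 kb of the summit for 19.8% of regions at starts, nearly always on the opposite strand (19.2%), against 21.7% of V2-overlapping regions. The share of genes with a region ran from 12.3% on X and 12.6% on chromosome 21 to 20.3% on chromosome 20.

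Promoters beside the sg3-only regions were mainly CpG-rich, as were those beside V2-overlapping regions. A promoter was called CpG-rich when its 300-base window, 250 bases before to 50 after the start, had an observed over expected CpG of at least 0.6 and a GC content of at least 50%. By this measure 2109 of 2517 promoters with an sg3-only region at the start were CpG-rich, 83.8% (82.3 to 85.2%), against 87.3% with a V2-overlapping region (86.0 to 88.5%), 64.4% of all 14541 promoters in the table and 46.1% of genes with no sg3 region at an end. Within bands of -log10 q the intervals of the sets overlapped. From 20 to 40 the share was 88.7% for sg3-only and 87.7% for V2-overlapping regions, and from 10 to 20 it was 85.4% for sg3-only and 85.9% for V2-overlapping regions. The sets share 440 promoters that have both kinds of region.

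Motif content followed the same broad pattern, with small differences. GC boxes, GGGCGG, were in 71.6% of sg3-only promoters (69.8 to 73.3%), 76.0% of V2-overlapping ones (74.3 to 77.6%) and 59.1% of all promoters. Among CpG-rich promoters they were in 78.1% of sg3-only, 81.6% of V2-overlapping and 79.1% of all, so the difference from all promoters was not seen there. The ETS motif CCGGAAG was in 20.4% of sg3-only promoters, 19.7% of V2-overlapping ones and 14.7% of all, and among CpG-rich promoters in 22.6% of sg3-only, 21.4% of V2-overlapping and 20.3% of all. The CCAAT box was in 38.8% of sg3-only promoters (36.9 to 40.8%), 34.0% of V2-overlapping ones (32.2 to 35.8%) and 36.7% of all. Among CpG-rich promoters this order remained, at 39.1% of sg3-only, 33.5% of V2-overlapping and 35.3% of all. The cAMP response element TGACGTCA was less frequent in sg3-only than in V2-overlapping promoters, with 3.46% of sg3-only promoters (2.78 to 4.25%), 5.44% of V2-overlapping ones (4.61 to 6.36%) and 2.67% of all. Among CpG-rich promoters it was in 3.84% of sg3-only, 5.93% of V2-overlapping and 3.66% of all. TATAAA was in 6.83% of sg3-only promoters, 5.81% of V2-overlapping ones and 9.77% of all. Among CpG-rich promoters the order against all promoters turned, at 4.74% of sg3-only, 4.79% of V2-overlapping and 4.17% of all. For the other 4 motifs the intervals of the sg3-only and V2-overlapping sets overlapped. In sg3-only promoters the AP-1 motif TGANTCA was found in 4.25%, the E-box CACGTG in 10.4%, the NRF1 motif GCATGCGC in 6.20% and the YY1 motif AAGATGGC in 5.68%, against 5.67%, 8.95%, 4.42% and 4.06% of all promoters. Both strands were searched over the 300 bases. A match is a run of letters and not a bound site.

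A minority of promoters were poor in CpG by both limits. These were 86 genes with 92 regions, at a median fold enrichment of 4.81 and a median -log10 q of 10.8, and 34.8% of the regions had V2 under 1 kb away. The following were named after their values were seen. GBP6, an interferon-inducible guanylate-binding protein, was enriched 12.4-fold at a -log10 q of 46.8, with the summit 196 bases inside the gene and a V2 region (8.13 in its list) 646 bases away. RTP4, an interferon-induced receptor transport protein, had 10.6 and 34.2, with V2 199 bases away. NKAP, an RNA-binding co-repressor on X, had 8.15 and 29.5 and no V2 region for 70416 bases. CXCL17, a mucosal chemokine, had 8.13 and 25.3 with V2 at 622 bases.

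Of all protein-coding genes 17.7% had an sg3-only gene-end region, and families formed by gene symbol ranged widely around this share. Keratins, DNA replication factors, nucleoporins and proteasome genes had the highest shares of the 34, and no test was made. In that order, 14.5%, 10.9%, 20% and 25% of their genes had a V2-overlapping region but no sg3-only one, against 14.9% of all genes. No sg3 region of any kind stood at an end of 34.5%, 26.1%, 16% and 16.7%, against 52.8% of all genes. The high shares thus partly go with more sg3 regions of any kind at these genes. Of 46 DNA replication factors 20 had a region, 43.5% (28.9 to 58.9%), and 18 of the 20 had no V2 region at either end, a count to be read beside the 70.8% over all genes with an sg3-only region. POLA2, a subunit of the primase complex, was enriched 8.86-fold at a -log10 q of 44.1 with its summit 336 bases inside the gene and V2 79577 bases away. RPA2, of the single-strand binding complex, had 9.30 and 37.7, and the clamp loader gene RFC2 had 7.33 and 36.1. RFC4, RFC3 and RFC1 of the same loader were present as well, at 6.32, 5.49 and 5.97, and so was the helicase subunit MCM4 at 5.44. In RFC4 the summit was 300 bases upstream and V2 lay 742 bases away.

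Proteasome and ribosomal protein genes came close behind. Of 48 proteasome genes, which include assembly chaperones with PSMG symbols, 19 had a region, 39.6% (25.8 to 54.7%), with 16 at the start. PSMA4, of the catalytic core, was enriched 7.73-fold at a -log10 q of 39.7, and PSMB3, also of the core, had 8.54 and 32.7. PSMA3 had the highest fold enrichment in the family, at 8.62. Of 84 cytosolic ribosomal protein genes 33 had a region, 39.3% (28.8 to 50.5%), between 3.16 and 8.51 in fold enrichment. RPL38 had 6.75 with V2 86673 bases away, while RPS3A, the highest at 8.51, had V2 497 bases away. Ribosomal proteins have many processed copies, and how reads with several alignments were treated is not stated, so these values are uncertain. Among 34 ubiquitin-conjugating enzymes 12 had a region (35.3%). UBE2S, a partner of the anaphase-promoting complex, had the highest -log10 q of these, 28.4, and UBE2K the highest fold enrichment, 7.13. Ubiquitin-specific proteases, which remove ubiquitin, stood near the overall share at 20% (10 of 50). Mitochondrial ribosomal proteins stood at 24.7% (19 of 77) and aminoacyl-tRNA synthetases at 25.7% (9 of 35). No sg3 region of any kind stood at an end of 15.5% of cytosolic ribosomal protein genes, against 52.8% of all genes. That share was 20.6% for ubiquitin-conjugating enzymes, 28% for ubiquitin-specific proteases, 35.1% for mitochondrial ribosomal proteins and 34.3% for aminoacyl-tRNA synthetases.

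Nuclear and membrane machinery showed similar counts. Nucleoporins had a region in 10 of 25 genes (40%, interval 21.1 to 61.3%), with NUP54 of the central channel at 7.89. Splicing proteins had one in 19 of 54 (35.2%), with SRSF7 at 9.81 and V2 556 bases away. Peroxins, which build peroxisomes, had one in 7 of 18 (38.9%, interval 17.3 to 64.3%), and none of the 7 had a V2 region within 1 kb of either end of the gene. The same held for 70.8% of all genes with an sg3-only region. The nearest V2 regions were 468 bases from the region at PEX10 and 758 bases from that at PEX13. The group of Mediator and TAF gene symbols had one in 15 of 54 (27.8%). It includes TAF1A, TAF1C and TAF15, which are not subunits of TFIID. MED7 had 11.7, a -log10 q of 52.8 and no V2 region for 461192 bases. Cyclins and anaphase-promoting complex genes had one in 9 of 25 (36.0%), including CCNB1, the mitotic cyclin, at 6.54. Of 97 vesicle traffic genes 27 had one (27.8%), and the sorting nexin gene SNX14 led them by -log10 q, at 45.9. No sg3 region of any kind stood at an end of 22.2% of the Mediator and TAF group, against 52.8% of all genes. That share was 29.9% for vesicle traffic genes, 18.5% for splicing proteins, 22.2% for peroxins and 24% for the cyclin group.

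Zinc finger genes were the most numerous family, with a share near that of all genes. A region was found at 113 of 555 (20.4%, interval 17.1 to 24%), 35 of them on chromosome 19, and 102 of the 113 had no V2 region at either end, where 2500 of 3533 did over all genes with an sg3-only region. Their median fold enrichment was 5.03 and their median -log10 q 15.3, and ZNF543 had 9.43 and 53.0. Solute carriers (16.9%, 59 of 350) and the F-box, KLHL and TRIM group (15.1%, 25 of 166) lay near the overall share too.

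Keratins, the intermediate filaments of epithelia, differed from the other high families in where the regions stood. Of 55 genes 24 had a region, 43.6% (30.3 to 57.7%). Taking the strongest region of each gene, 7 were at the start and 8 at the 3′ end, and the strand of 9 was not given. Their median -log10 q was 9.45 at a median fold enrichment of 5.41. KRT33A, a hair keratin, had 8.79 with its summit 955 bases inside the gene from its 3′ end, and KRT14, a basal epidermal keratin, had 3 regions at 5.79, 5.55 and 5.21. Keratin genes lie in 2 clusters on chromosomes 12 and 17 and include close copies, so neighbouring members share a location and their values are uncertain.

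Low shares were found for several tissue-restricted families, most of whose genes had no sg3 region of any kind at an end. That held for 387 of 392 olfactory receptors, 98 of 109 potassium and sodium channels, 87 of 94 keratin-associated proteins, 45 of 45 defensins and 61 of 84 interleukin genes, against 52.8% of all genes. Olfactory receptors had a region at 2 of 392 genes (0.510%, interval 0.0618 to 1.83%), OR2A42 at 6.44 and OR1F1 at 2.76, and potassium and sodium channels at 3 of 109 (2.75%). Keratin-associated proteins of hair had one at 7 of 94 (7.45%), all on chromosome 17. Of 45 defensin genes 0 had one, an interval up to 7.87%. Interleukins and their receptors had one at 9 of 84 (10.7%), among them IL1RAP, a co-receptor for interleukin-1 family cytokines, at 3.73.

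**Figure D5:**
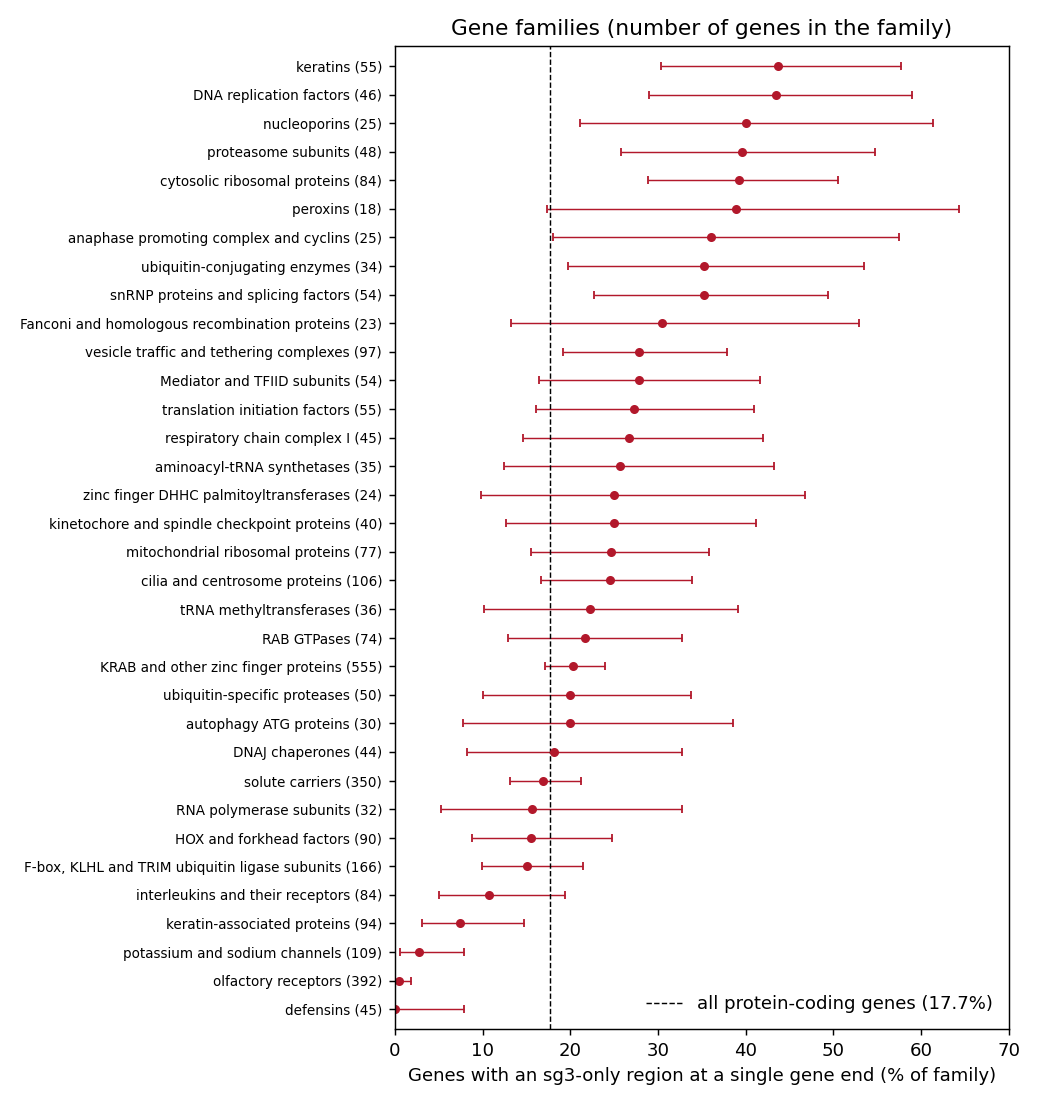
Percent of genes in each of 34 families that have an sg3-only region at a single gene end, with exact 95% intervals and the family size in parentheses. The dashed line is the share over all protein-coding genes, 17.7%. Keratins (43.6%) and DNA replication factors (43.5%) stand highest, and olfactory receptors (0.510%) and defensins (0 of 45) lowest.

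The 3′-end regions formed a smaller and different group. The 378 summits spread over the window without a peak like that at starts. Their median was -155.5 bases, where negative is inside the gene, and 45.2% lay past the end (40.1 to 50.4%). Few lay around the end itself, with 10 in the last 100 bases before it and 7 in the first 100 past it. V2-overlapping summits were also few there, at 6 and 3. An annotated gene start lay within 1 kb of the summit for 28 of them (7.41%, interval 4.98 to 10.5%), against 34 of 263 V2-overlapping ones (12.9%, interval 9.12 to 17.6%). In both sets, summits near an end of a second protein-coding gene were left out by the rule, so low shares are partly set by it. C19orf67, an uncharacterised gene, led by -log10 q at 64.4 with a fold enrichment of 9.93, its summit 226 bases before the 3′ end and V2 2208 bases away. PPP1R15A, a stress-induced phosphatase subunit also called GADD34, had 57.8 and 7.84, and V2 lay 283 bases away, further inside the gene. N4BP3, C6orf89 and ZNF385C followed with -log10 q values of 40.4, 39.5 and 39.2.

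Markers of squamous epithelium checked the labelled cell type. Within 1 kb of an end, 12 of 12 carried an sg3 region and 10 a V2 region. Of 5 genes each, 2 fibroblast or endothelial genes (COL1A1 and CDH5) and 1 neuron gene (RBFOX3) had an sg3 region, and no liver or muscle gene did. Of the 12 squamous genes 6 had an sg3-only region: TP63, KRT5, KRT14, KRT6A, DSP and PERP. Over all protein-coding genes 17.7% had an sg3-only region and 52.8% had no sg3 region at an end. No such share is given here for V2. DSP, the desmosomal plaque protein, had 9.87 at 933 bases upstream, with a V2 region (8.03) 317 bases away. TP63, the basal epithelial transcription factor, had 2.97 at 444 bases upstream and no V2 region for 22061 bases. SIRT3 itself was not in the set, since the region at its end also meets the end of another gene. V2 had a region within 1 kb of an end of SIRT3 as well.

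At the limits of the rule the choice of regions was gradual. The farthest summit kept was that of B4GAT1 at 1000 bases and the nearest left out, that of MAZ, was 1 base further, with 221 kept beyond 900 bases. The smallest gap to V2 was 8 bases, at LOC124900476, and 9 regions had a gap under 100 bases. The smallest overlap that made a region shared was 25 bases, at SLC37A2. Shared regions were overlapped over a median of 71.4% of their width. No sg3-only region at a single gene end reached the width limit.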

How the data were processed

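H3K9la ChIP-seq of KYSE30 cells was analysed from 2 narrowPeak lists. Per the submitters' processing notes the tools were MACS2 2.2.9.1, Bowtie2 2.5.1, SAMtools 1.18, Trim Galore 0.6.10 and FastQC 0.12.1, on hg38. The sources used here do not give the command line, the control library, the depth or how multiply aligned reads were treated. The list of the V2 arm is attached to its input sample and was taken as that arm's list. The fold enrichment, a ratio, and the -log10 p and -log10 q of each region are the authors' deposited values and were compared within 1 list only. The deposited score repeats the -log10 q and was not used. The summit offset deposited by the authors was used as a position.

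Gene ends came from a RefSeq table of GRCh38.p14 with 19974 protein-coding genes. Strand came from the RefSeq promoter table for 15812 of them, and 14541 had a promoter window that began within 1 kb of the outer 5′ end of the gene. Overlap meant at least 1 base. Shares have exact Clopper-Pearson intervals (SciPy 1.17.1, Python 3.11.15). The overlap steps were tested on simulated data.

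Named genes were the 12 regions of highest -log10 q, the 6 of highest fold enrichment, the 5 strongest at a 3′ end, the 4 widest, up to 2 per family by -log10 q, those at each limit of the rule, the marker genes and SIRT3. The blood marker list is not reported here. Others, including the fold enrichment leaders within families, genes with several regions and CpG-poor promoters, were chosen after their values were seen. Promoters were to be printed where the summit lay in the window. That held for 0 of the 12, so the stretches before the start of 4 of the 12 and of GBP6 were printed, chosen after their values were seen. The regions, families and lists were chosen with earlier results of these data known.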

Additional observations from a re-analysis of the deposited data

How the results depend on the processing

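The 3983 regions and their shares were recomputed under 9 alternatives, a stricter CpG limit, and 1 more chosen after seeing the data, that no V2 region lies within 50 kb. Placing regions by midpoint or dropping the width limit moved no result beyond its interval. The count of regions was 2458 with no V2 region within 5 kb, 2551 where -log10 q reached 10, 2366 at a fold enrichment of at least 4, and 1280 with none within 50 kb. With the sg3 list cut to the length of the V2 list, the count was 2912. The share at a gene start, 88.4%, was 89.8% with no V2 region within 1 kb, 94.0% within 5 kb and 97.7% within 50 kb. It was 92.4% when -log10 q had to reach 10, 91.6% with a window of 500 bases, 82.7% with 2.5 kb and 91.3% in lists of equal length. The sg3-only shares at starts and 3′ ends, 47.5% and 59.0%, were 36.3% and 39.2% with no V2 region within 1 kb. They were 38.9% and 43.0% where -log10 q reached 10, 38.2% and 52.0% at a fold enrichment of at least 4, and 41.5% and 48.6% in lists of equal length. The order of the pair turned to 31.3% and 19% with no V2 region within 5 kb, and to 17.1% and 3.74% within 50 kb. The cause was not tested. The share at starts was 49.8% with the window of 500 bases. The CpG-rich share, 83.8%, was 86.0% and 87.9% with no V2 region within 5 and 50 kb, 86.5% where -log10 q reached 10, 82.0% at a fold enrichment of at least 4, 86.1% and 80.8% with windows of 500 bases and 2.5 kb, 85.9% in lists of equal length, and 66.2% with limits of 0.75 and 55%. Depth is not stated in the lists, so a region missing from V2 may lie below its threshold. No paired analysis was possible because each arm has 1 list and no result comes from a test.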
